A study of Mus musculus with 32 samples.

Results

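The genes described here are 8 hepatocyte genes: the transcription factors Hnf4a, Foxa2, Foxa3 and Cebpa, the bile acid receptor Nr1h4, and the secreted products Alb, Apob and Ambp. They were taken by symbol from the count tables of both cell lines of the series, which makes 8 genes of 27843 listed for AML12 and of 55414 listed for HL-1. All 8 had counts in AML12 and passed the filter on low counts there. In HL-1, 6 had at least 1 count and 3 (Foxa2, Cebpa and Apob) passed the filter. AML12 is a mouse hepatocyte line that was made from the liver of a mouse carrying a human TGF-alpha transgene, and HL-1 is a mouse line made from an atrial tumour. The series has 32 libraries in 8 groups of 4. AML12 cells were labelled either as control or as DEX, an abbreviation that the labels do not spell out, and each was sampled at 17 h and 25 h. HL-1 cells were kept in medium that came from AML12 cultures and sampled at 16 h and 28 h. For HL-1 control cells this medium came without DEX synchronization, and for HL-1 CM (conditioned medium) cells it came with it, so no HL-1 group was free of AML12 medium. The library descriptions write the times as ZT17 and ZT25 for AML12 and as ZT16 and ZT28 for HL-1.

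A small circuit of DNA-binding proteins sets up and keeps the hepatocyte state. FOXA proteins open chromatin at liver genes, HNF4A, a nuclear receptor, occupies a large share of liver promoters and enhancers, and C/EBP-alpha drives genes of metabolism and plasma proteins while restraining cell division. NR1H4 (FXR) senses bile acids and acts as a dimer with RXR. Among their targets are albumin, the main protein of plasma, apolipoprotein B, the backbone of the lipoproteins that the liver exports, and the precursor of alpha-1-microglobulin and bikunin, which Ambp encodes.

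All positions are those of GENCODE M21 on GRCm38. Hnf4a lies on chromosome 2 from 163506808 to 163572910 on the plus strand, and Foxa2 on chromosome 2 from 148042877 to 148046969 on the minus strand. Foxa3 lies on chromosome 7 from 19013284 to 19023538 on the minus strand, and Cebpa on chromosome 7 from 35119293 to 35121928 on the plus strand. Nr1h4 lies on chromosome 10 from 89454234 to 89533585 on the minus strand, and Alb on chromosome 5 from 90460897 to 90476602 on the plus strand. Apob lies on chromosome 12 from 7977648 to 8016835 on the plus strand, and Ambp on chromosome 4 from 63143275 to 63154799 on the minus strand. Hnf4aos, an antisense gene, overlaps Hnf4a but shares 0 exon bases with it. Gm45091, also antisense, shares 51 exon bases with Cebpa. As the strand setting of the counting is not given in the sources used here, reads in those shared bases cannot be assigned to either gene.

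RefSeq windows around annotated start sites (GRCm38.p6, from 250 bases before the start to 50 after) were available for all 8 members, 11 windows in all. Of these, 3 are printed because the results turn on these genes: the starts of Nr1h4 and Alb, the members with the largest DEX responses, and of Apob, a product that moved opposite to Alb at 17 h and holds the same match. Capitals mark matches, on either strand, to AGGTCA (bound by nuclear receptors) or TTGCNNAA (bound by C/EBP). Positions count the start as 1 and the base before it as -1. The Nr1h4 window is chr10:89506609-89506908 on the minus strand, with its start 26.9 kb inside the GENCODE gene, so the farthest annotated start was not examined. The Alb window is chr5:90460620-90460919 and the Apob window chr12:7977427-7977726, both on the plus strand.
Nr1h4: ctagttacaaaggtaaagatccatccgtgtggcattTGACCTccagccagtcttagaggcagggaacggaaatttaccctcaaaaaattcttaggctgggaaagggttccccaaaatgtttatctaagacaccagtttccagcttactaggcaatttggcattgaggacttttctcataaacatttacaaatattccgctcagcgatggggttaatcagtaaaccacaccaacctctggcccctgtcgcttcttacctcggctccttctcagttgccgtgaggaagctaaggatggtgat
Alb: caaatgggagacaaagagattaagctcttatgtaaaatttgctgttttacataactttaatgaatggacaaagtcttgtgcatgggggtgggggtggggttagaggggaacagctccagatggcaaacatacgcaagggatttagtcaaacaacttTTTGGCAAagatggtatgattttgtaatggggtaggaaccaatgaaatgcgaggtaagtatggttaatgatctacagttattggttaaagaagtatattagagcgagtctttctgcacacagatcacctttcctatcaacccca
Apob: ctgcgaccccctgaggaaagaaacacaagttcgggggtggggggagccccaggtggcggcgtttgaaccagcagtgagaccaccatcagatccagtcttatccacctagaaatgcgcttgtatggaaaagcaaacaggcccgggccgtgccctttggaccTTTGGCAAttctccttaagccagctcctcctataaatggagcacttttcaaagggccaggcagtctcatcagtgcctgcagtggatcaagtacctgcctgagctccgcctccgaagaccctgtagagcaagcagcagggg

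The Nr1h4 window had a nuclear receptor match at -214. In the Alb window a C/EBP match began at -94, and in the Apob window at -90, with the same bases, TTTGGCAA. Of the other members, Ambp had nuclear receptor matches at -180 and -6 and a match to AGAACA, bound by the glucocorticoid receptor, at -199. Hnf4a has a pair of RefSeq starts 40298 bases apart, whose reads the count table adds together, and neither window held a match to a motif given here. TGTTTAC (bound by FOXA) and CAAAGTCCA (bound by HNF4) were also searched and matched no member window. No 2 of these matches shared a base. Over all 32851 RefSeq windows of this length, AGGTCA was present in 16.3%, TTGCNNAA in 10.8%, AGAACA in 19.0%, TGTTTAC in 3.65% and CAAAGTCCA in 0.475%. In all, 4 of 11 member windows held a match to at least 1 of these 5 motifs. These matches describe letters and are not evidence of binding.

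Library totals ran from 15.0 to 17.5 M counts (M, mega) in AML12 and from 15.7 to 19.3 M in HL-1, where CM libraries were on average deeper than their controls (ranges overlapped at 28 h only). By the chi-square of gene counts per degree of freedom, some libraries stood apart, in that they differed from each other library of their group more than those did among themselves. Replicate 2 of AML12 DEX at 17 h stood farthest apart (13.6 to 18.1, with 2.41 to 4.00 among the others). Next was replicate 3 of HL-1 control at 16 h (8.05 to 16.6, with 2.73 to 5.58). In AML12, margins were narrow for replicate 4 of control at 17 h (2.57 to 3.16, with 2.14 to 2.55). They were also narrow for replicate 4 of control at 25 h (3.07 to 3.11, with 2.06 to 2.94). For replicate 4 of DEX at 25 h the values were 3.90 to 5.06, with 2.31 to 3.69. Separate cultures are not stated in the labels for the 4 libraries of any group. The p-values measure only how these samples varied, and part of that may be technical. Levels are in CPM (the count divided by the TMM-scaled library total in M), and changes are log2 fold changes ± SE from edgeR's quasi-likelihood test. A gene is called at an adjusted p (Benjamini-Hochberg over all genes tested in the line) of 0.05 or less. In bulk RNA, fewer cells expressing a gene and less of its RNA per cell cannot be told apart.

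In AML12 cells Hnf4a had more CPM than 93.0% of the genes tested, Apob than 89.9%, Foxa2 than 75.5% and Nr1h4 than 60.3%. Foxa3 (35.7%), Cebpa (26.2%), Ambp (14.4%) and Alb (13.7%) lay in the lower part of the range. Scaled by length, as CPM per kb of merged exons over 16 libraries, Hnf4a averaged 42.5, Foxa2 30.4 and Nr1h4 16.5. Apob followed at 11.1, Foxa3 at 5.46 and Cebpa at 1.87, and Ambp (1.09) and Alb (0.612) came last. Alb, the defining product of adult hepatocytes, rested on 377 counts and Ambp on 407 in all 16 libraries together. The coefficient of variation of Alb was 31.8% in controls and 7.80% in DEX cells at 17 h, where counting error alone gives 29.8% and 18.3%. At 25 h it was 39.9% and 37.9%, above the 26.5% and 16.0% of counting. For Ambp only controls at 25 h (34.0%, with 18.3% from counting) varied more than counting gives. For Apob in controls at 17 h the same values were 9.93% and 1.87%. Of 25 liver enzyme genes, 17 were listed and 12 of those lay under 1 CPM. The bile duct keratin Krt19 averaged 1700.5 CPM, Krt7 454 CPM and Spp1 1651 CPM.

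**Figure D1:**
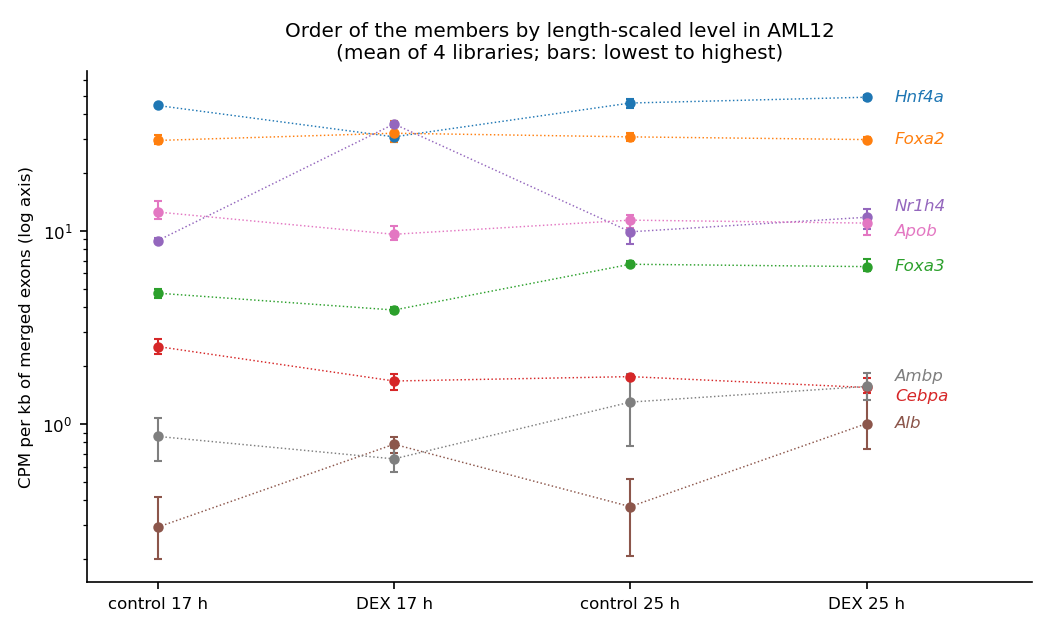
Mean CPM per kb of merged exons (log axis) of each gene in the 4 AML12 groups, with bars from the lowest to the highest of 4 libraries and dotted lines that only link points of a gene. Nr1h4 stands at 35.7 in DEX cells at 17 h, beside Foxa2 and Hnf4a, and between 8.88 and 11.7 in the other groups.

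The order of the genes differed between the treatments at 17 h, while at 25 h only genes with overlapping ranges changed places. In control cells at 17 h it ran Hnf4a, Foxa2, Apob, Nr1h4, Foxa3, Cebpa, Ambp, Alb, and no gene's library range overlapped that of the next. In DEX cells at 17 h Nr1h4 had the highest mean at 35.7 CPM per kb, followed by Foxa2 at 32.0 and Hnf4a at 30.6. The ranges of Nr1h4 and Foxa2 overlapped there, as did those of Foxa2 and Hnf4a, so these neighbours did not differ beyond their spread. Nr1h4 (34.4 to 36.4) lay wholly above Hnf4a (29.0 to 32.0) in these cells. Alb (0.783) and Ambp (0.657) also overlapped in that group. At 25 h Hnf4a was again first, at 45.8 in control and 49.1 in DEX cells, and it was clear of Foxa2 in both. Apob and Nr1h4 overlapped at 25 h in both treatments, and so did Cebpa and Ambp. In DEX cells at 25 h Cebpa also overlapped Alb, which came last. Merged exons count every annotated isoform, so the order holds for these lengths.

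DEX against control at 17 h asked how the treated hepatocyte line differed at the earlier time. The factor genes Hnf4a, Foxa3 and Cebpa were lower in DEX cells, as was Apob, whereas the bile acid receptor Nr1h4 rose about 4-fold and Alb rose from a low level. In all, 2 members rose, 4 fell and 2 did not pass. Of all 14114 genes tested, 38.4% passed in this comparison, so many genes passed besides these. The median change of the 8 members was -0.34, against 0.00438 over all genes tested. For each of the 6 called members the 4 DEX libraries lay wholly above or wholly below the 4 controls. The share of all genes tested that separated in this way was not counted, so this describes the members only.

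**Figure D2:**
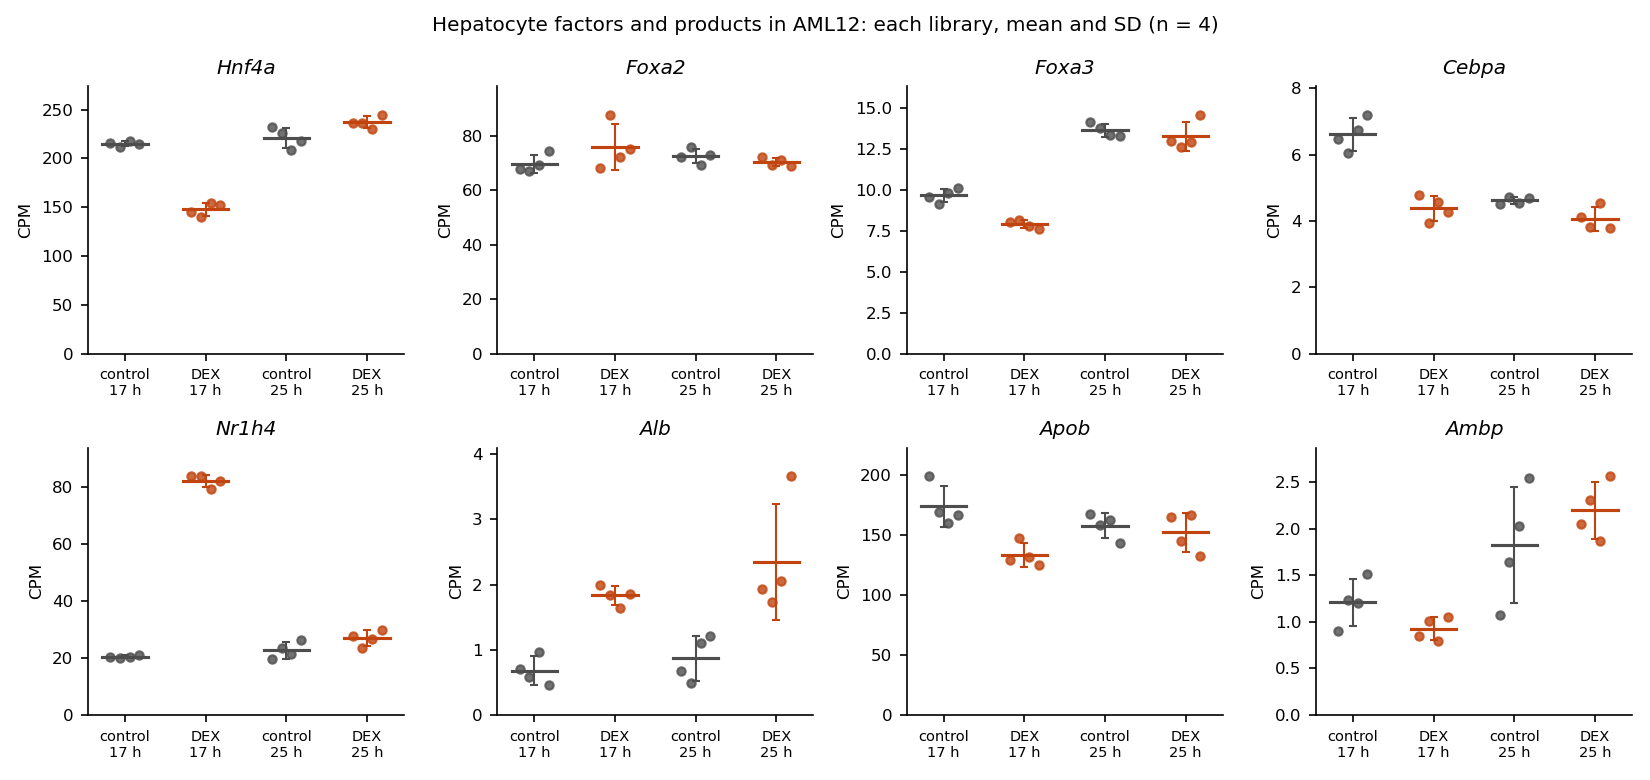
CPM (linear axes from 0) of the 8 genes in each AML12 library, with the mean and SD of 4 libraries per group. The 4 DEX libraries at 17 h lie between 79.3 and 83.8 CPM for Nr1h4, above all 12 others, and between 140 and 155 CPM for Hnf4a, below all 12 others.

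Hnf4a stood at 216, 212, 218 and 215 CPM in the control libraries at 17 h and at 145, 140, 155 and 152 CPM in the DEX libraries. The DEX libraries were all lower, with a gap wider than the spread of either group. The mean went from 215 ± 2.51 to 148 ± 6.81 CPM (SD, n = 4), a log2 fold change of -0.54 ± 0.04 (edgeR adjusted p = 1.53e-10). The antisense gene Hnf4aos was at 0.820 CPM in controls and 0.646 CPM in DEX cells (edgeR adjusted p = 0.376).

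Foxa2, more abundant per kb than its relative Foxa3, stood at 67.7, 67.0, 69.2 and 74.2 CPM in controls and at 68.0, 87.7, 72.3 and 75.1 CPM in DEX cells. The groups overlapped, and the value of 87.7 came from replicate 2, a library that stood apart. The log2 fold change of Foxa2 was 0.12 ± 0.06 (edgeR adjusted p = 0.0992). It was 0.04 without that library (edgeR adjusted p = 0.530), and 0.16 without DEX replicate 1, which passed (edgeR adjusted p = 0.0270). Foxa3 stood at 9.56, 9.15, 9.82 and 10.1 CPM in controls and at 8.04, 8.17, 7.81 and 7.59 CPM in DEX cells. These groups did not overlap, and Foxa3 fell by 0.29 ± 0.08 on the log2 scale (edgeR adjusted p = 0.00513).

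Cebpa was at 6.48, 6.04, 6.74 and 7.21 CPM in controls and at 4.78, 3.93, 4.58 and 4.26 CPM in DEX cells. Every DEX library was below every control, and the log2 fold change was -0.59 ± 0.10 (edgeR adjusted p = 4.42e-05). Gm45091, which shares exon bases with it, also fell, from 1.67 to 1.08 CPM (log2 fold change -0.63 ± 0.20, edgeR adjusted p = 0.0156). Its part in the Cebpa result was not tested.

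Nr1h4 was at 20.3, 20.0, 20.3 and 21.2 CPM in controls and at 83.6, 83.8, 79.3 and 82.2 CPM in DEX cells. Both groups were tight, and the mean went from 20.5 ± 0.531 to 82.2 ± 2.10 CPM (SD, n = 4). The log2 fold change was 2.01 ± 0.07 (edgeR adjusted p = 1.16e-16), the 53rd largest rise among 14114 genes tested.

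Of the products, Alb was at 0.706, 0.584, 0.971 and 0.465 CPM in controls and at 2.00, 1.84, 1.65 and 1.85 CPM in DEX cells. These values come from 45 counts in the controls together and 119 in the DEX libraries, with no overlap between the groups. The log2 fold change of Alb was 1.41 ± 0.30 (edgeR adjusted p = 0.000493). Apob was at 199, 170, 160 and 167 CPM in controls and at 129, 148, 131 and 125 CPM in DEX cells, again with no overlap. It fell by 0.38 ± 0.07 on the log2 scale (edgeR adjusted p = 0.000130). Ambp was at 0.898, 1.23, 1.20 and 1.51 CPM in controls and at 0.847, 1.01, 0.793 and 1.05 CPM in DEX cells, groups that overlapped (log2 fold change -0.39 ± 0.26, edgeR adjusted p = 0.251). Its 95% interval, from -0.90 to 0.12, is wide enough to hold the change seen for Hnf4a. Without replicate 2 of DEX, the 6 called members were still called, with Nr1h4 at 1.99, Alb at 1.41 and Hnf4a at -0.52.

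At 25 h only the rises of Alb and Nr1h4 passed among the members, and the factors that were lower at 17 h were not called. In all, 2 members passed (both higher) and 6 did not, where 11.7% of all genes tested passed. The median change of the members was 0.03, against 0.00183 over all genes. Alb was at 0.674, 0.485, 1.11 and 1.21 CPM in controls and at 1.94, 1.73, 2.05 and 3.66 CPM in DEX cells. The DEX libraries were all higher, replicate 4 by far the most. The log2 fold change of Alb was 1.40 ± 0.27 (edgeR adjusted p = 0.000712), the 20th largest rise of all genes tested. It was 1.10 without DEX replicate 4 (edgeR adjusted p = 0.00507).

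Nr1h4 was at 19.6, 23.5, 21.3 and 26.4 CPM in controls at 25 h and at 27.8, 23.6, 26.8 and 30.0 CPM in DEX cells. The groups overlapped, and the difference was small (0.25 ± 0.08, edgeR adjusted p = 0.0350). The call did not hold without any 1 of 6 libraries, which were DEX replicates 1, 3 and 4 and control replicates 1, 2 and 3. The estimates without them ran from 0.17 to 0.25 and the edgeR adjusted p from 0.0667 to 0.187. With only the 8 compared libraries in the fit, Nr1h4 was at 0.24 (edgeR adjusted p = 0.0540).

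Hnf4a was at 232, 226, 208 and 218 CPM in controls at 25 h and at 237, 237, 230 and 245 CPM in DEX cells. The groups overlapped by a single library, and the change was 0.10 ± 0.04 (edgeR adjusted p = 0.121). Foxa2 (-0.05 ± 0.06), Foxa3 (-0.04 ± 0.07), Cebpa (-0.19 ± 0.11), Apob (-0.05 ± 0.07) and Ambp (0.25 ± 0.20) had edgeR adjusted p-values between 0.348 and 0.807. For Foxa2, Foxa3 and Apob the 95% intervals at 25 h lay within -0.19 and 0.10. For Cebpa the interval ran from -0.40 to 0.02.

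**Figure D3:**
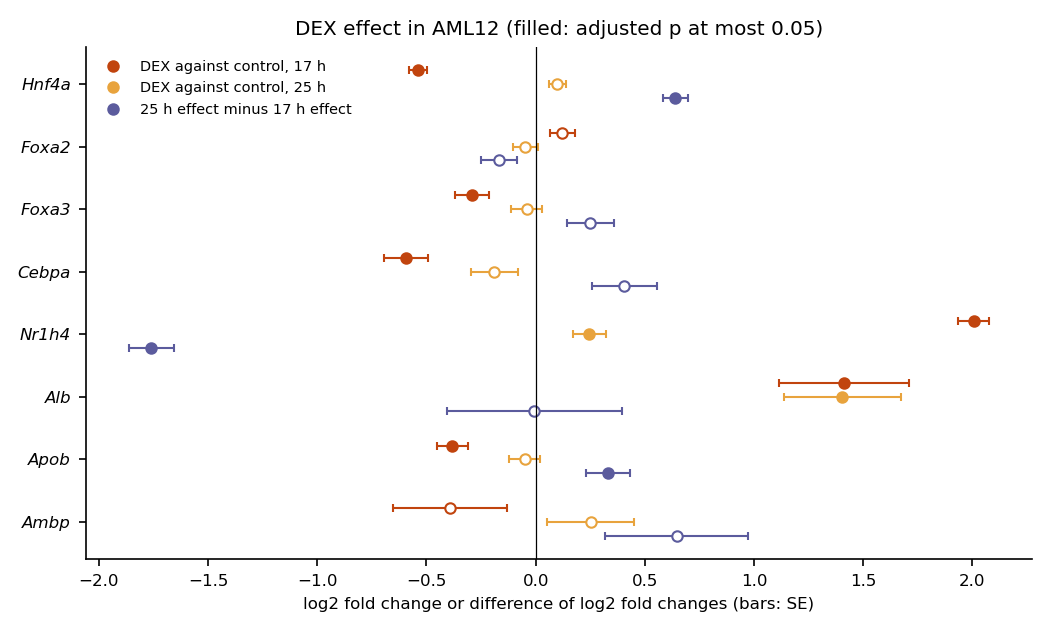
Log2 fold change of DEX against control at 17 h and 25 h, and the 25 h effect minus the 17 h effect, for each gene in AML12 (points with SE bars, filled where the edgeR adjusted p is at most 0.05). Nr1h4 moves from 2.01 to 0.25 and Hnf4a from -0.54 to 0.10, while Alb stays near 1.4 at both times.

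The difference of the DEX effects between the times was tested as an interaction, with separate controls at each time. It passed for 3 of 8 members, and for 16.2% of all genes tested. The effect on Nr1h4 was smaller at 25 h by 1.76 ± 0.10 (log2, -1.76, edgeR adjusted p = 7.98e-12), the 34th most negative difference of all genes. The effect on Hnf4a was higher at 25 h by 0.64 ± 0.06 (edgeR adjusted p = 1.32e-08), and that on Apob by 0.33 ± 0.10 (edgeR adjusted p = 0.0249). The Apob call did not hold without any 1 of 6 libraries: DEX 17 h replicates 1 and 4, DEX 25 h replicates 1 and 3, control 17 h replicate 1 and control 25 h replicate 4. Estimates of it then ran from 0.26 to 0.31, with edgeR adjusted p from 0.0520 to 0.0736. For Alb the difference was -0.01 ± 0.40 (edgeR adjusted p = 0.993), with a 95% interval from -0.79 to 0.78. For Cebpa it was 0.40 ± 0.15 (edgeR adjusted p = 0.0707), and 0.45 with scaling by total counts only, which passed (edgeR adjusted p = 0.0427). Foxa2 (-0.17 ± 0.08), Foxa3 (0.25 ± 0.11) and Ambp (0.65 ± 0.33) did not pass either, with edgeR adjusted p-values of 0.179, 0.121 and 0.204.

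Members also differed between the labelled times within a treatment. In control cells, 25 h against 17 h called 3 of 8 members, where 43.5% of all genes passed. Foxa3 rose from 9.66 ± 0.409 to 13.6 ± 0.398 CPM (0.50 ± 0.07, edgeR adjusted p = 9.00e-06) and Cebpa fell from 6.62 ± 0.490 to 4.62 ± 0.104 CPM (-0.52 ± 0.10, edgeR adjusted p = 0.000201). Neither gene's libraries overlapped between the times. The control libraries at 25 h read 14.2, 13.8, 13.3 and 13.3 CPM for Foxa3 and 4.51, 4.73, 4.55 and 4.69 CPM for Cebpa. Ambp was also called higher in control cells (0.60 ± 0.22, edgeR adjusted p = 0.0346), from 1.08, 1.64, 2.03 and 2.55 CPM at 25 h, but the groups overlapped. That Ambp call was lost in DESeq2 (adjusted p = 0.0687), in limma-voom (adjusted p = 0.0631), with total counts only (edgeR adjusted p = 0.0505) and without any 1 of control 17 h replicates 1, 2 and 3 or control 25 h replicates 3 and 4. Without control 25 h replicate 4 the estimate was 0.39 (edgeR adjusted p = 0.187).

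In DEX cells, 25 h against 17 h called 5 of 8 members, where 56.0% of all genes passed. This contrast shares its DEX libraries with the comparisons above, so its values are not independent of them. Hnf4a (0.68 ± 0.04), Foxa3 (0.75 ± 0.08), Ambp (1.24 ± 0.23) and Apob (0.19 ± 0.07) were higher at 25 h and Nr1h4 was lower (-1.61 ± 0.07). The Foxa3 libraries of DEX cells at 25 h read 13.0, 12.6, 12.9 and 14.6 CPM, and those of Ambp 2.05, 2.31, 1.86 and 2.56 CPM, all above the DEX libraries at 17 h. The edgeR adjusted p was 6.69e-05 for Ambp and 0.0254 for Apob. The Apob call was lost without any 1 of DEX 17 h replicates 1, 3 and 4 or DEX 25 h replicates 1 and 3, with estimates from 0.15 to 0.18. Cebpa was at 4.11, 3.81, 4.53 and 3.78 CPM in DEX cells at 25 h, close to its level at 17 h in the same cells (-0.11 ± 0.11, edgeR adjusted p = 0.433). The fall of Cebpa with time was thus called in control cells and not in DEX cells, and the test of that difference is the interaction above, which it did not pass.

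Other liver factors moved both ways at 17 h. Of 20 in the list, 16 were tested, 4 rose and 5 fell, with a median change of 8.05e-05. Over all genes tested, 20.5% rose and 17.9% fell at 17 h, and 6.79% rose and 4.96% fell at 25 h. The counts of this and the following AML12 lists stand beside those shares and were not tested against them. Klf15, a factor of fasting metabolism, rose by 1.19 ± 0.07, Cebpb, a relative of Cebpa, by 0.78 ± 0.14 and Nr2f2, an orphan nuclear receptor, by 0.60 ± 0.07. Cebpb was uneven among the DEX libraries (84.8 ± 29.1 CPM, with 49.3 ± 2.62 CPM in controls, SD). Its estimate ran from 0.56 to 0.92 over the alternative settings, and the call held in each. At 25 h 0 of the 16 rose and 1 fell, Hhex, a homeobox factor of liver development (-0.78 ± 0.18, edgeR adjusted p = 0.00401). With only the compared libraries in the fit 3 fell there, and without the low-count filter 2.

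Of 12 tested metabolic nuclear receptors and partners, 1 rose and 4 fell at 17 h (median change 0.02). Ppara, the fatty acid receptor of fasting liver, rose by 3.00 ± 0.17, and Nr3c1, the glucocorticoid receptor gene, fell by 0.27 ± 0.04. Rxra, which encodes the dimer partner of NR1H4, was at 89.7 CPM in controls and 91.0 CPM in DEX cells (0.02 ± 0.04, edgeR adjusted p = 0.721). At 25 h 0 rose and 1 fell (Nr3c1, -0.12 ± 0.04, edgeR adjusted p = 0.0406). That call was lost without any 1 of DEX replicate 1 and control replicates 2 and 3, with total counts only and with no low-count filter.

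Bile acid genes, either under NR1H4 or of bile acid synthesis and transport, were mostly not measurable. Of 14 listed, 2 were tested, and 0 rose and 2 fell at 17 h. As the list mixes these kinds of gene, its counts do not measure NR1H4 activity. Abcc2, an export pump for bile acid conjugates, fell from 48.6 to 27.8 CPM (-0.80 ± 0.07, edgeR adjusted p = 5.58e-10), and the syndecan Sdc1 from 349 to 289 CPM (-0.27 ± 0.06, edgeR adjusted p = 0.000300). The corepressor Nr0b2 had 9 counts and the bile salt pump Abcb11 5 counts in all 16 AML12 libraries. At 25 h Sdc1 was lower (-0.34 ± 0.06) and Abcc2 stood at 0.06 ± 0.07 (edgeR adjusted p = 0.689).

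Other plasma proteins fell more often than they rose at 17 h, unlike Alb. Of 25 in the list 13 were tested, 2 rose and 9 fell, with a median change of -0.53. Of all genes tested, 20.5% rose and 17.9% fell at 17 h. The heme carrier Hpx went from 62.3 to 21.8 CPM (-1.52 ± 0.09) and the vitamin D carrier Gc from 51.2 to 13.9 CPM (-1.88 ± 0.12), while haptoglobin (Hp) went from 7.92 to 23.3 CPM (1.55 ± 0.09). Transthyretin (Ttr), picked after its values were seen, was the other that rose (1.69 ± 0.26, edgeR adjusted p = 1.25e-05). At 25 h 2 rose and 6 fell (median -0.23), and Hp and Ttr were again the 2 that rose, at 0.63 ± 0.11 and 1.27 ± 0.23. Gc (-1.07 ± 0.10), Agt, the precursor of angiotensin (-1.18 ± 0.14), and the retinol carrier Rbp4 (-0.42 ± 0.05) were lower.

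Around Apob, of 13 tested lipoprotein genes 5 rose and 1 fell at 17 h (median 0.10), and at 25 h 1 rose and 0 fell (median 0.06). Apobec1, the enzyme that edits Apob RNA, rose from 0.794 to 2.36 CPM (1.57 ± 0.22) at 17 h. Sort1, a sorting receptor, fell by 0.65 ± 0.09. Mttp, which loads lipid onto apolipoprotein B, was at 8.49 and 9.44 CPM (0.15 ± 0.11, edgeR adjusted p = 0.309). The count of 1 at 25 h was 0 without DEX replicate 4 or without control replicate 4, and 2 without DEX replicate 2. Of 4 tested partners of bikunin, Itih2, a heavy chain that is joined to it, rose at 17 h (1.66 ± 0.18) and at 25 h (0.91 ± 0.18), and the other 3 did not pass. Of 6 tested liver enzymes 2 rose and 1 fell at 17 h, and those that rose were Fah at 0.23 ± 0.05 and Cyp27a1 at 0.25 ± 0.08. Cyp27a1 was not called without DEX replicate 2, without control replicate 3 or with no low-count filter. At 25 h 1 rose and 0 fell, Fah at 0.21 ± 0.05, which was not called without DEX replicate 4.

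The glucocorticoid-responsive genes Fkbp5, Tsc22d3, Per1 and Sgk1 were all higher in DEX cells at 17 h (4 of 4, median 1.75), and 3 of 4 at 25 h (median 0.23). Their summed level ran from 225 to 232 CPM in the 4 controls at 17 h and from 845 to 878 CPM in the DEX libraries. At 25 h the sums were 224 to 231 and 276 to 321 CPM. The summed bile duct markers overlapped at 17 h, with 3978 to 4164 CPM in controls and 3907 to 4194 CPM in DEX cells, although 3 of 5 tested rose and 1 fell. At 25 h they did not overlap, at 4774 to 5048 and 4398 to 4644 CPM, with 1 of 5 higher and 1 lower. Summed macrophage markers ran from 173 to 182 CPM in controls and from 115 to 124 CPM in DEX cells at 17 h, and from 210 to 231 and 244 to 254 CPM at 25 h. Nearly all of that was Cd14, while the pan-leukocyte gene Ptprc had 33 counts in 16 libraries and Adgre1 was not listed. Endothelial sums were 3.90 to 5.58 CPM in controls and 2.65 to 3.74 CPM in DEX cells at 17 h, with 1 of 2 tested lower. Mesenchymal sums were 4.40 to 5.84 and 4.09 to 4.57 CPM, with 0 of 2 tested called. The part of these markers in the members' results was not tested.

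Across the 16 AML12 libraries, the genes whose log2 levels ran most like Hnf4a were the cell cycle inhibitor Cdkn2b (Pearson r = 0.985), the clock output factor Dbp (0.982) and Osbpl3 (0.977). For Nr1h4 they were the zinc finger gene Zbtb16 (0.989), the keratin Krt20 (0.988) and Klf15 (0.988). For Foxa3 they were Hbegf (0.988), Crb2 (0.988) and Atat1 (0.985), and for Cebpa Bag1 (0.964), Id3 (0.958) and Acnat2 (0.948). The best match was lower for Ambp (Akr1e1, 0.935), Alb (Tpt1, 0.902), Apob (Fat1, 0.892) and Foxa2 (E2f5, 0.859). Among the members themselves, Hnf4a ran with Foxa3 (0.846) and opposite to Nr1h4 (-0.914). These values describe 16 libraries that fall into 4 groups, share their library totals between genes and were picked as the highest of all, so they carry no test.

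In HL-1, the cardiomyocyte line taken as the negative, 5 of the 8 genes were at or near 0. Alb and Ambp had 0 counts in all 16 HL-1 libraries, which allows up to 0.0108 CPM each (3 counts over the libraries, for counting error only). Against that floor the AML12 level was at least 133-fold higher for Alb and at least 144-fold higher for Ambp. Hnf4a had 1 count in 1 of 16 HL-1 libraries, Nr1h4 9 counts in 6 libraries and Foxa3 18 counts in 10. The other 3 were measurable in HL-1: Foxa2 averaged 12.7 CPM over 16 libraries, Cebpa 9.02 CPM and Apob 7.87 CPM. The same genes averaged 72.0, 4.92 and 154 CPM in AML12, so Cebpa was the 1 member with the higher value in HL-1. The tables of the lines are separate, and no test was made between them.

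**Figure D4:**
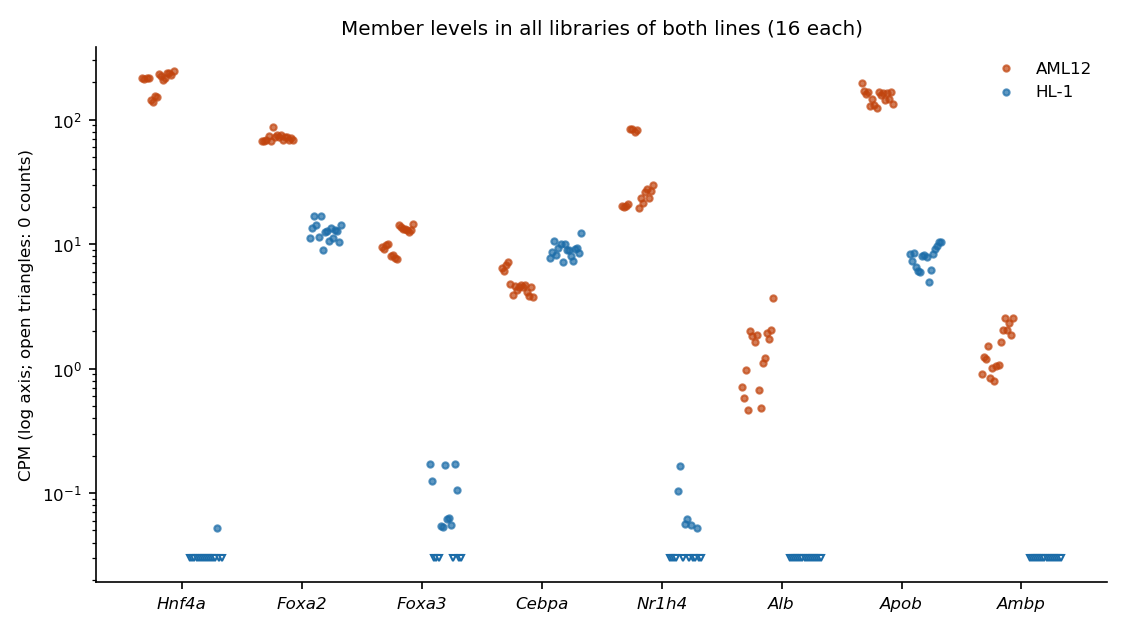
CPM (log axis) of each gene in the 16 AML12 and 16 HL-1 libraries, in table order within each column of points, with open triangles at the bottom for libraries with 0 counts. Foxa2, Cebpa and Apob are the genes with counts in every HL-1 library, and Cebpa lies higher in HL-1 (9.02 CPM on average) than in AML12 (4.92 CPM).

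Per kb of exon, HL-1 had 5.38 CPM of Foxa2, 3.42 of Cebpa and 0.565 of Apob. Mttp, needed for apolipoprotein B export, averaged 6.12 CPM in HL-1 and 8.53 CPM in AML12, and Apoa1 had 1 count in HL-1. The cardiac markers themselves were sparse in this line: Myl7 had 0 counts, Myh6 4, Actc1 5 and Nppa 5, while the troponin Tnnt2 averaged 34.5 CPM. Tnnt2 averaged more in AML12, at 55.1 CPM, so its level is not particular to HL-1. Fibroblast collagens were abundant, with Col1a1 at 175 CPM, Col1a2 at 844 CPM and Col3a1 at 1455 CPM. The other mesenchymal markers of the list were mixed. Pdgfrb averaged 106 CPM, Pdgfra 52.0 CPM and Dcn 22.9 CPM, while Thy1 and Lum had 4 counts each.

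In HL-1, CM against control compares AML12 medium with and without DEX synchronization, and few genes of any kind were called. The CM effect given here is that difference. At 16 h 0 of 3 tested members were called, where 2.03% of all 14450 genes tested passed. The log2 fold changes were -0.16 ± 0.14 for Foxa2, 0.06 ± 0.13 for Cebpa and -0.12 ± 0.14 for Apob, with edgeR adjusted p-values of 0.778, 0.939 and 0.858. At an unadjusted p of 0.05, 0 of the 3 passed in edgeR, and adjusted DESeq2 and limma-voom p-values also called 0. The 95% intervals were -0.44 to 0.11, -0.19 to 0.31 and -0.39 to 0.15. At 28 h 1 of 3 was called, where 1.92% of all genes passed.

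**Figure D5:**
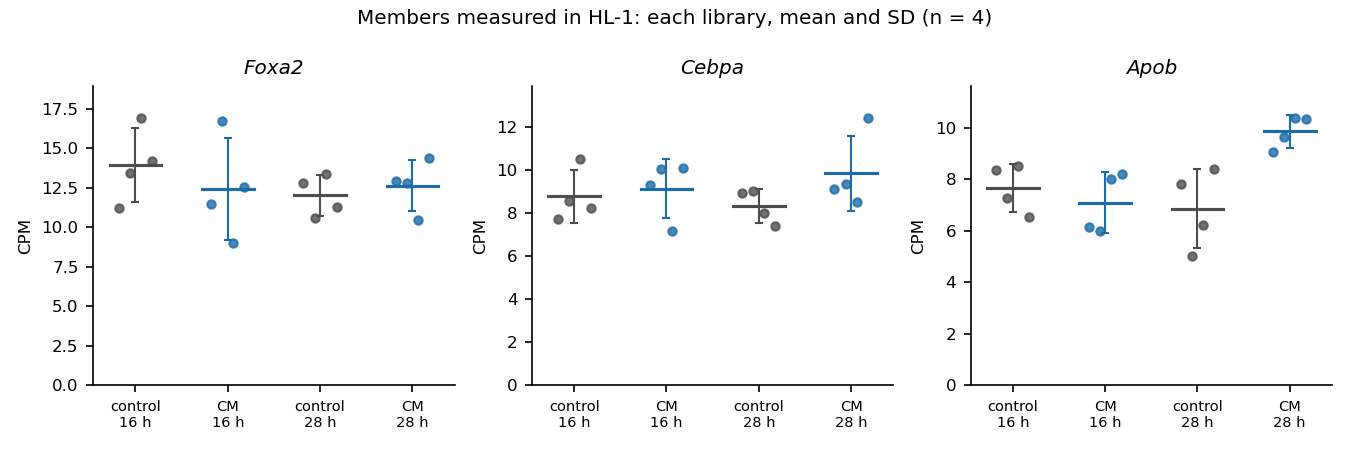
CPM (linear axes from 0) of Foxa2, Cebpa and Apob in each HL-1 library, with the mean and SD of 4 libraries per group. The 4 Apob values in CM at 28 h, from 9.06 to 10.4 CPM, lie above the 4 controls at 28 h, which reach 8.38 CPM, while the groups overlap for Foxa2 and Cebpa.

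Apob was at 7.82, 5.01, 6.22 and 8.38 CPM in HL-1 controls at 28 h and at 9.06, 9.64, 10.4 and 10.4 CPM in CM. The CM libraries were all higher, and the mean went from 6.86 ± 1.53 to 9.86 ± 0.631 CPM (SD, n = 4; log2 fold change 0.53 ± 0.13, edgeR adjusted p = 0.0388). The call was lost without any 1 of CM replicates 2, 3 and 4 or control replicates 2 and 3. Estimates then ran from 0.40 to 0.54 and the edgeR adjusted p from 0.0563 to 0.182. CM libraries were on average deeper than controls at 28 h, at 18.2 ± 0.753 against 16.6 ± 1.00 M counts, and the part of depth in the result was not tested. Foxa2 (0.07 ± 0.14) and Cebpa (0.24 ± 0.13) had edgeR adjusted p-values of 0.892 and 0.445 there. Foxa2 read 12.8, 10.6, 13.4 and 11.3 CPM in controls and 12.9, 12.8, 10.4 and 14.3 CPM in CM. Cebpa read 8.93, 9.01, 8.00 and 7.37 CPM in controls and 9.12, 9.32, 8.52 and 12.4 CPM in CM.

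The difference of the CM effects between the times called 0 of 3 members, where 0.277% of all genes passed. For Apob it was 0.64 ± 0.19 (edgeR adjusted p = 0.293, unadjusted p = 0.00267), where DESeq2 and limma-voom also called 0 members, and it passed without the low-count filter (0.63, edgeR adjusted p = 0.0446). The CM against control change of Apob at 28 h was therefore not shown to differ from that at 16 h in the main fit. With time, 0 of 3 members changed in HL-1 control cells, where 62.8% of all genes passed, and Foxa2 (-0.21 ± 0.14), Cebpa (-0.07 ± 0.13) and Apob (-0.16 ± 0.14) had edgeR adjusted p-values of 0.218, 0.661 and 0.318. Again 0 of them passed at an unadjusted p of 0.05, and DESeq2 and limma-voom called 0. In CM cells 1 of 3 changed, where 65.4% passed: Apob was higher at 28 h (0.48 ± 0.13, edgeR adjusted p = 0.00254), with the 4 libraries at 28 h above the 4 at 16 h (6.14, 5.99, 7.99 and 8.21 CPM).

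Beside these values, the glucocorticoid-responsive genes rose in CM at 16 h (3 of 4, median 0.33), and 1 rose and 1 fell at 28 h. The summed cardiomyocyte markers ran from 31.1 to 34.6 CPM in HL-1 controls at 28 h and from 47.9 to 52.0 CPM in CM, with 1 of 3 tested higher (Tnnt2). Bile duct markers summed to 2358 to 2445 CPM in controls and 1992 to 2235 CPM in CM, with 1 of 4 lower. Among 11 tested lipoprotein genes 0 rose and 0 fell at 28 h, where 1.92% of all genes tested passed. The part of these markers in the Apob result was not tested.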

How the data were processed

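Both deposited tables hold whole read counts, not normalized by the authors: AML12 in one and HL-1 in the other, genes in rows and libraries in columns. FastQC 0.11.8, STAR and mm10 (GRCm38) are named in the submitters' processing notes. What program counted the reads, with which strand option and gene models, is not given in the sources used here. RNA came from TRIzol extracts and went into NEBNext Ultra II libraries, per the labels' protocols. The AML12 table lists only genes with at least 1 count.

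Groups came from the labels. Each line was analysed alone on the genes that filterByExpr kept, 14114 in AML12 and 14450 in HL-1. After TMM scaling, edgeR 4.0.16 (R 4.3.3) fitted 1 mean per group over 16 libraries and made quasi-likelihood tests of 10 contrasts over both lines. SE is the size of the log2 fold change divided by the root of F, and for a member's difference between effects it combines the SEs of both effects, which share no library. Library totals ran from 15.0 to 19.3 M counts. Intervals are at 95%. Floors and bounds cover counting error only, since reads are not independent molecules. The fits were tested on simulated data.

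The members and the 13 gene lists were chosen with earlier results of these data known. All 8 members are named. Of each list, up to 3 called genes with the smallest p in AML12 DEX against control at each time are named. The treatment check genes, the 3 genes most like each member by r of log2(CPM + 0.5) and overlapping genes are named too. Some genes that these rules gave, and 1 motif of those planned, are not reported here, while list counts include the genes. Others are marked as picked after their values were seen, or are markers and partners given by level.

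Alternatives were RLE scaling, scaling by total counts, a fit without the low-count filter, DESeq2 1.42.0, limma-voom (limma 3.58.1), a replicate block, a fit of the compared groups alone, and omission of each library. They were applied to the gene lists after seeing the data.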

Additional observations from a re-analysis of the deposited data

Results flagged for a closer look

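Alb in replicate 4 of AML12 DEX at 25 h stood at 3.66 CPM, farther from the other 3 libraries (1.73 to 2.05 CPM) than Dixon's 95% limit for 4 values allows. Such a gap turns up by chance in about 1 of 20 groups. The same library differed from the other 3 over all genes, by a narrow margin. Its part in the Alb result is measured above: the rise was 1.10 without it.

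The DEX effect differed between 17 h and 25 h, by the interaction test of edgeR, for 3 genes. Hnf4a differed by 0.64 (log2; from -0.54 to 0.10, adjusted p = 1.32e-08), Nr1h4 by -1.76 (from 2.01 to 0.25, adjusted p = 7.98e-12) and Apob by 0.33 (from -0.38 to -0.05, adjusted p = 0.0249).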

How the results depend on the processing

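No called change of a member reversed its direction under any alternative run. In the fits that leave out 1 library, 484 of the members' log2 fold changes kept their direction and side of the threshold, 27 lost the call, 3 gained it and 14, all close to 0 and not called, changed sign. Under the other settings 362 kept both, 4 lost the call, 5 gained it and 3 changed sign. For the difference of the DEX effects on Alb (-0.01), no low-count filter gave 0.00271, total counts only 0.0354, and leaving out single libraries -0.305 to 0.200 (log2). For Hnf4a with time in AML12 control cells (0.04) total counts only gave -0.00479. In HL-1, leaving out single libraries gave -0.0210 to 0.173 for Cebpa with time in CM cells (0.11) and -0.0926 to 0.210 for Foxa2 there (0.02). It gave -0.137 to 0.0131 for Cebpa with time in controls (-0.07), and -0.000461 to 0.154 for Cebpa by CM at 16 h (0.06). For the members called by DEX at 25 h (2 here), only the compared libraries gave 1, and leaving out single libraries gave 1 to 2. For CM at 28 h (1 member and 278 genes here), leaving out single libraries gave 0 to 1 members and 170 to 334 genes. For the difference between the CM effects (0 members and 40 genes here), no low-count filter gave 1 member and 97 genes, and DESeq2 gave 68 genes. The cause was not tested. Replicate numbers did not pair the libraries: deviations of same-numbered libraries correlated between -0.0945 and 0.108 in AML12 and between -0.119 and 0.121 in HL-1. With the replicate block the members called were 6, 2 and 3 for DEX at 17 h, at 25 h and their difference, as without it, and 1 for CM at 28 h. Genes called with the block were 5369, 1633 and 2208 in AML12 and 295, 294 and 49 in HL-1.

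The depth limits Alb and Ambp most, at 45 to 156 and 60 to 147 counts per group. In HL-1 it limits 5 members to upper limits or to at most 18 counts in all. Gene counts add all starts and isoforms.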
